A study of Mus musculus with 6 samples.

Results

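Gpr151, Pou4f1, Tac2, Ano1, Nwd2, Syt15 and Htr5b are genes used as markers of habenula neurons, and their levels were followed through 6 libraries of mouse thalamic RNA. They are 7 of the 32531 gene rows in each table, and all 7 were among the 16496 genes that passed the filter on low counts. They were chosen by name with the difference between the groups in view, so their own difference is given below as a description, with no test. The study used translating ribosome affinity purification (TRAP), in which ribosomes carrying an EGFP-tagged protein are captured with an antibody together with the mRNA they hold. The mice were untreated adult controls of the Slc17a6-EGFP/Rpl10a line JX883, and all 6 libraries came from thalamus of this line. The groups were immunopurified RNA (IP, 3 libraries) and Input (3 libraries), with replicate numbers 1 to 3 in each, so that IP 1 and Input 1 form pair 1. Slc17a6, after which the line is called, encodes VGLUT2, a vesicular transporter of glutamate. Whether habenula cells carry the tag in these mice is not stated by the labels. Nothing in them ties replicates to separate animals, so errors and p-values describe the spread between these libraries, which may be technical.

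The habenula is a small paired structure at the dorsal edge of the thalamus that sends its axons to the midbrain. Its neurons are mostly glutamatergic. The medial habenula makes substance P or acetylcholine beside glutamate, carries a dense set of nicotinic receptor subunits, and projects to the interpeduncular nucleus, whereas the lateral habenula projects to the ventral tegmental area, the rostromedial tegmental nucleus and the raphe. Pou4f1 (Brn3a) is the POU homeodomain factor of habenula neurons, and Gpr151 is an orphan G protein-coupled receptor of their axons and terminals. The question put to the data was whether transcripts of these glutamatergic neurons were held by the captured ribosomes as those of the thalamus proper were.

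By the GRCm38 annotation, Pou4f1 lies at chr14:104461676-104467999, Tac2 at chr10:127724478-127731768, Ano1 at chr7:144588549-144751974, Nwd2 at chr5:63649102-63810546, Syt15 at chr14:34219595-34230420 and Htr5b at chr1:121509842-121528465. Nwd2 shares exon sequence with an antisense transcript, Gm9954, so without a known strand setting some of its reads may belong to that transcript. RefSeq promoter windows on GRCm38.p6 were at hand for 5 of the 7 genes (not for Gpr151 and Htr5b). The 250 bases before the start are shown for Tac2 and Nwd2, which were lower in IP in every pair and whose windows lie before the annotated gene (the last base of the Nwd2 window is its first base). Both are on the plus strand, and capitals mark ATTA, the core letters read by many homeodomain proteins, or its reverse complement TAAT.
Tac2, chr10:127724228-127724477: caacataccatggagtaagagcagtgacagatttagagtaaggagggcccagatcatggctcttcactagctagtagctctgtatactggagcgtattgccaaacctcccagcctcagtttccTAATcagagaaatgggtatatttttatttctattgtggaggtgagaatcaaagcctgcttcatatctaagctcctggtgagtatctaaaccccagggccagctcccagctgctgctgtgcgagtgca
Nwd2, chr5:63648853-63649102: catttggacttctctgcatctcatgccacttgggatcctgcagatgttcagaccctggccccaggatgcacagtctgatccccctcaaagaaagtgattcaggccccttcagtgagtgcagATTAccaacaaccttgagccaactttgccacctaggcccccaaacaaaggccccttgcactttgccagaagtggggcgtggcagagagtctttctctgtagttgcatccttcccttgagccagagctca
On both strands, ATTA was in 2 of the 5 windows and in 54.9% of all 32851 promoter windows of this length. It began at -127 in Tac2 and at -129 in Nwd2, where -1 is the last base of the window. The longer strings CATTAA and TAATTA, which both contain ATTA, were in 0 of the 5 windows and in 7.91% and 4.84% of all windows. The Tac2 and Nwd2 windows had 47.2% and 53.6% G and C, against 78%, 72% and 70% in those of Pou4f1, Ano1 and Syt15.

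The libraries held between 44081149 and 54421395 gene reads, and 3 reads corresponded to 0.0552 to 0.0681 CPM (counts scaled by library size with TMM factors). Slc17a6 had 6488, 2192 and 2199 CPM in IP 1, 2 and 3 and 3151, 875 and 477 CPM in Input 1, 2 and 3, so it was higher in IP in each pair. Libraries stood apart in other ways. Genes of choroid plexus and ependyma summed to 1206 CPM in Input 3, mostly Ttr, against 44.2 and 46.4 CPM in Input 1 and 2. In IP 3, 12 transcription factor genes of the midbrain, listed after the Pou4f1 values had been seen, summed to 113.9 CPM against 5.80 and 7.11 CPM in IP 1 and 2. Of these 12, 9 passed the filter, and 10 were at their highest of the 3 IP libraries, Pax7 and Pou4f3 on only 1 and 2 reads. The share of all genes highest in IP 3 was not counted. The median ratio of IP 3 to the mean of IP 1 and IP 2 was 0.985 over 14065 genes averaging 1 CPM or more. In bulk tissue, fewer cells of a type and less RNA per cell cannot be told apart.

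**Figure D1:**
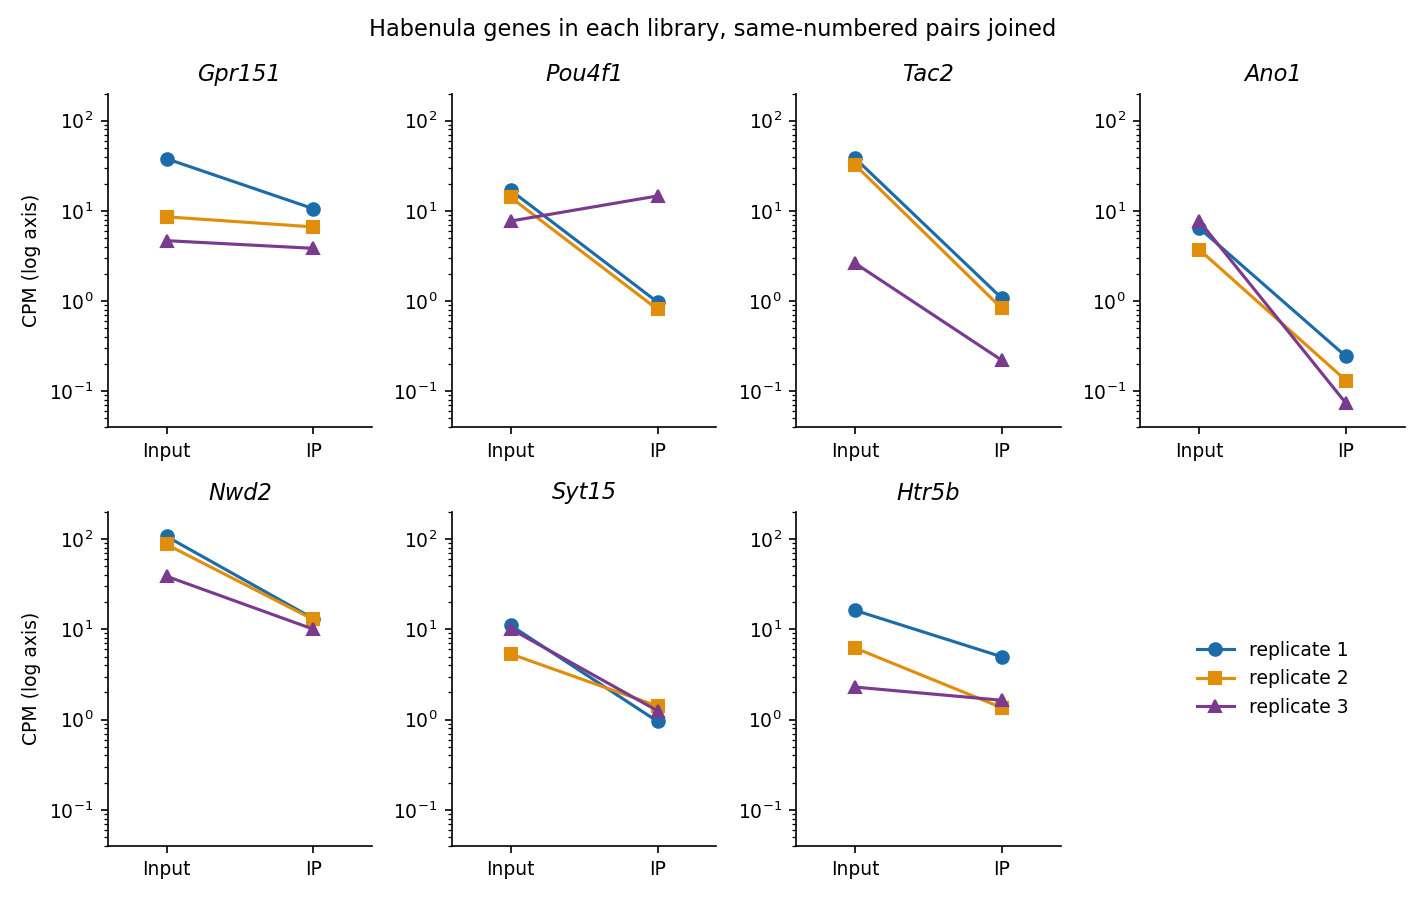
Level of each of the 7 habenula genes in every library, in CPM on a log axis, with Input at the left, IP at the right and a line joining the libraries of a replicate number. Every line runs down from Input to IP except that of Pou4f1 in replicate 3, which runs up from 7.71 to 14.6 CPM.

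Pou4f1 was the member whose pairs disagreed most. Its level was 16.9, 14.1 and 7.71 CPM in Input 1, 2 and 3, and 0.973, 0.809 and 14.6 CPM in IP 1, 2 and 3. IP 1 and IP 2 thus held 5.77% and 5.74% of the level in their Input, whereas IP 3 held 190%, and the groups overlapped through IP 3 alone. The log2 ratios of IP over Input were -4.12, -4.12 and 0.92, with a mean of -2.44 ± 2.91 (SD, n = 3 pairs). The fitted log2 fold change of IP minus Input was -1.24 ± 0.98 (SE), and it was -3.84 without IP 3 and -4.11 without pair 3. With the replicate number as a block it was -2.68 ± 0.99.

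Some other genes, of the midbrain and of the habenula lists below, were also high in IP 3. Pou4f1 was 16.4 times as high in IP 3 as the mean of IP 1 and IP 2. Of the 14065 genes averaging 1 CPM or more, 107 reached that ratio (0.761%). Tac1, Lmo3 and Isl1, read below among other habenula genes, had ratios of 10.9, 8.62 and 4.75. Among the chosen genes, Gpr151, Tac2, Ano1, Nwd2 and Htr5b had ratios of 0.447, 0.232, 0.392, 0.772 and 0.518, and Syt15 had 1.06. Pou4f2, a close relative of Pou4f1 that the superior colliculus expresses, had 0.69 and 0 CPM in IP 1 and IP 2 and 15.6 CPM in IP 3. Tfap2d, a midbrain transcription factor, had 0.49, 0.32 and 16.7 CPM in the same order, and Barhl2 had 3.85, 5.94 and 51.3 CPM. Input 3 was also the highest Input library by the sum of the 12 midbrain genes, at 5.37, 13.1 and 52.2 CPM in Input 1, 2 and 3. Most of this was Tfap2b, at 0.174, 0.634 and 31.9 CPM. Not every gene shared the excess, since Tfap2d was at 0.93, 0.61 and 0.23 CPM and Barhl2 at 1.999, 5.05 and 5.31 CPM. The midbrain list was drawn up after the Pou4f1 values had been seen, and 9 of its 12 genes were tested, with 0 called in either direction by edgeR's quasi-likelihood test (4 at an unadjusted p under 0.05, and 1 higher and 1 lower with the replicate block). Over all genes tested, 15.6% were called lower and 9.6% higher (19.2% and 15.9% with the replicate block). The part of midbrain RNA in the Pou4f1 level of IP 3 was not tested.

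**Figure D2:**
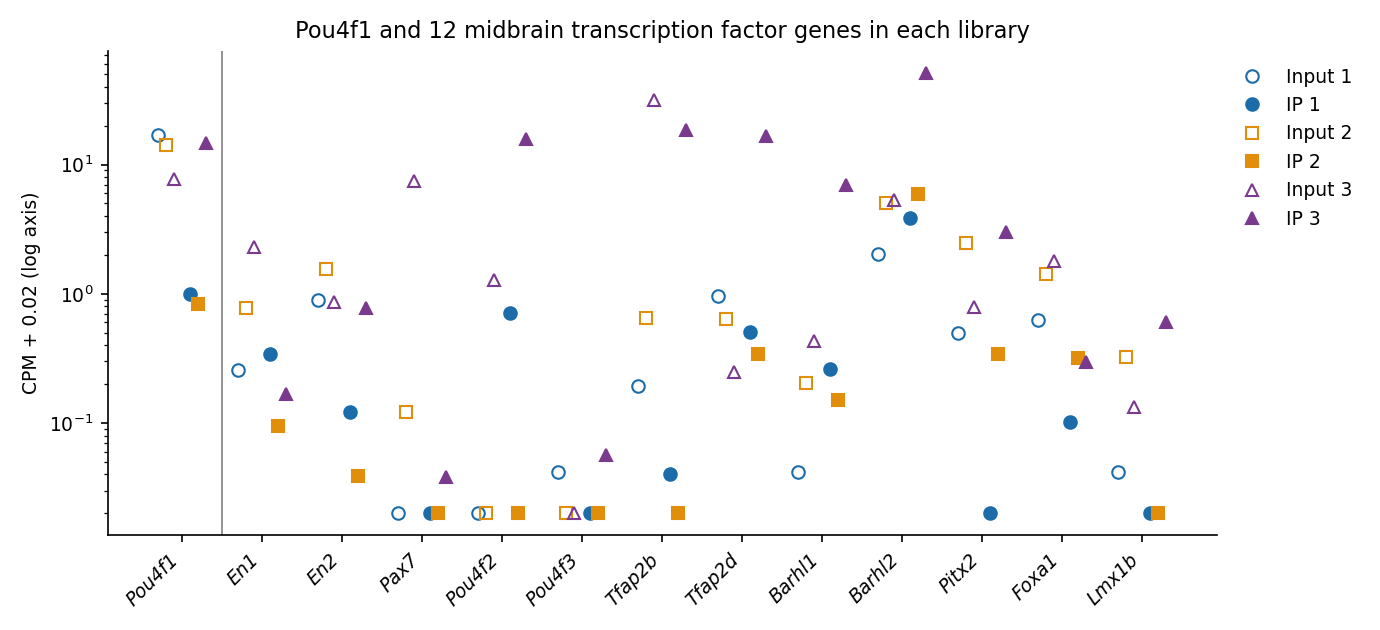
Level of Pou4f1 and of 12 midbrain transcription factor genes in each library, as CPM plus 0.02 on a log axis, with open symbols for Input and filled symbols for IP. IP 3 (filled triangles) is the highest IP library for Pou4f1 and for 10 of the 12 midbrain genes. For Pax7 and Pou4f3 this rests on 1 and 2 reads. The list was drawn up after the Pou4f1 values had been seen. The share of all genes highest in IP 3 was not counted.

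Tac2, which encodes the precursor of neurokinin B and marks medial habenula neurons, had a level in IP far under that in Input. It had 38.4, 32.4 and 2.63 CPM in Input 1, 2 and 3 (24.5 ± 19.2, SD) and 1.07, 0.827 and 0.221 CPM in IP 1, 2 and 3 (0.708 ± 0.439, SD). Every IP library lay below every Input library, although Input 3 was far below the other Input libraries. The IP level was 2.80%, 2.55% and 8.38% of the Input level in pairs 1, 2 and 3, and the fitted log2 fold change was -5.11 ± 0.99 (SE). It lay between -5.64 and -4.63 when any single library was left out. In reads, Tac2 went from 1767, 1586 and 116 in Input to 53, 44 and 12 in IP.

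Gpr151 was the member with the smallest difference between the groups on the pair scale. Its level was 37.9, 8.59 and 4.67 CPM in Input 1, 2 and 3 and 10.6, 6.64 and 3.84 CPM in IP 1, 2 and 3. Both groups had the order of replicates 1, 2 and 3, and they overlapped. IP held 27.9%, 77.3% and 82.2% of the Input level, so only pair 1 showed a difference above 1 on the log2 scale (-1.84, against -0.37 and -0.28). The fitted log2 fold change of -1.28 ± 0.72 (SE) rested on Input 1. Without that library it was 0.085, without pair 1 it was -0.34, and with the replicate block it was -0.83 ± 0.36.

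Htr5b, a serotonin receptor gene that is expressed in the medial habenula, resembled Gpr151. It had 16.3, 6.22 and 2.29 CPM in Input 1, 2 and 3 and 4.97, 1.354 and 1.64 CPM in IP 1, 2 and 3, and the groups overlapped. IP was lower in each pair, at 30.6%, 21.8% and 71.4% of Input. The fitted log2 fold change was -1.64 ± 0.77 (SE) and -1.48 ± 0.46 with the replicate block. It was -0.68 without Input 1 and -2.45 without IP 1. Without pair 1, 2 or 3 it was -1.51, -1.49 and -1.82, whereas the value of Gpr151 was -0.34 without pair 1. Gpr151 and Htr5b were also the 2 members with the most alike profiles over the 6 libraries, at a root-mean-square distance of 0.53 between their centred log2 CPM values. The 2 members farthest apart were Pou4f1 and Tac2, at 2.42.

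Ano1, a calcium-activated chloride channel gene, was close to the detection floor in IP. It had 6.45, 3.72 and 7.74 CPM in Input 1, 2 and 3 and 0.243, 0.132 and 0.0736 CPM in IP 1, 2 and 3, from 12, 7 and 4 reads. The 95% Poisson intervals of these read counts were 6.20 to 21.0, 2.81 to 14.4 and 1.09 to 10.2, and they cover counting error only. The groups did not overlap, IP held 3.77%, 3.54% and 0.951% of the Input level, and the fitted log2 fold change was -5.30 ± 0.68 (SE). Smooth muscle cells and pericytes are known to express Ano1 too. The mural cell genes stood at 9.59%, 9.73% and 9.49% of Input by their summed level, which was 4.16 to 4.49 CPM in IP and 42.7 to 47.3 CPM in Input. Of 8 tested mural genes 4 fell and 0 rose, where 15.6% and 9.6% of all genes did. The part of mural cells in the Ano1 values was not tested.

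Nwd2, which encodes a protein with NACHT and WD repeat domains, differed between the groups with little spread among the IP libraries. It had 107.3, 87.4 and 38.8 CPM in Input 1, 2 and 3 and 13.2, 12.9 and 10.04 CPM in IP 1, 2 and 3. The IP libraries differed by 1.31 times from lowest to highest while the Input libraries differed by 2.76 times, and the groups were well separated. IP held 12.3%, 14.7% and 25.9% of Input, and the fitted log2 fold change was -2.70 ± 0.37 (SE), the smallest SE of the 7 genes.

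Syt15, an atypical member of the synaptotagmin family of membrane trafficking proteins, had 11.1, 5.34 and 10.1 CPM in Input 1, 2 and 3 and 0.953, 1.41 and 1.25 CPM in IP 1, 2 and 3. The groups did not overlap, and IP held 8.62%, 26.4% and 12.4% of Input. The fitted log2 fold change was -2.87 ± 0.46 (SE) and stayed between -3.13 and -2.67 when any single library was left out.

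As a description of the contrast that chose them, 4 of the 7 genes (Tac2, Ano1, Nwd2 and Syt15) had all 3 IP libraries under all 3 Input libraries, as 25% of genes tested had. The median fitted log2 fold change was -2.70 for the 7 genes and -0.04 for all genes tested. By pair, 7, 7 and 6 of the 7 were lower in IP in pairs 1, 2 and 3, with medians of -3.54, -2.76 and -1.95, where 53.1%, 51.8% and 49.5% of all genes tested were lower.

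**Figure D3:**
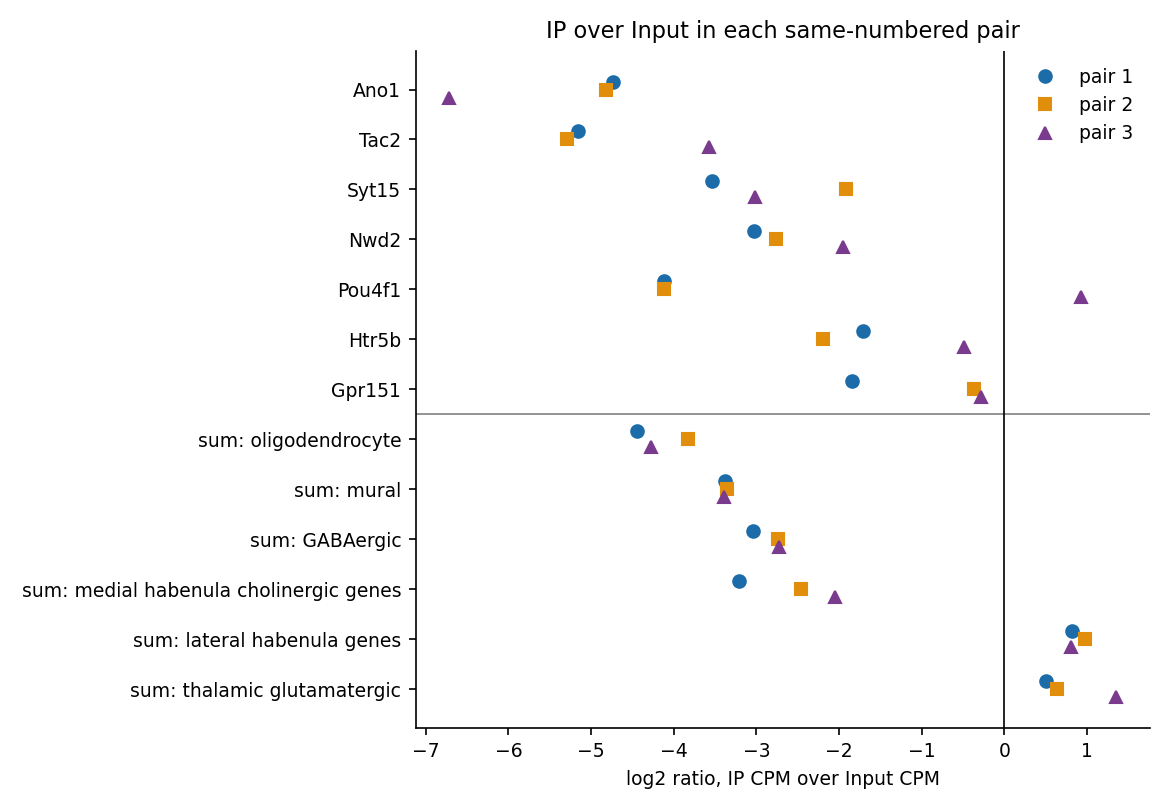
Log2 ratio of IP CPM over Input CPM in each same-numbered pair for the 7 habenula genes (above the line) and for the summed CPM of marker lists (below it). The 7 genes spread from -6.72 (Ano1, pair 3) to 0.92 (Pou4f1, pair 3). The summed thalamic glutamatergic and lateral habenula genes are above 0 in every pair. Gap43 makes up most of the lateral habenula sum in IP. Of the 8 lateral habenula genes 1 was called higher, where 9.6% of all genes were.

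Set beside the marker genes of thalamic glutamatergic neurons, most of the habenula genes had lower ratios. Of 15 such genes 5 rose in IP, 0 fell and 10 did not pass the test, at a background of 9.6% of genes called higher (8 rose in the blocked fit, at 15.9%), and their summed level was 9435 to 14444 CPM in IP and 3691 to 10177 CPM in Input. The lowest of the 15 was Plekhg1 in each pair, with log2 ratios of -0.63, -0.50 and 0.33. All 7 habenula genes lay below it in pair 1, all but Gpr151 in pair 2, and all but Pou4f1 in pair 3. This sets values side by side and is no test of a difference between the lists. The habenula genes were chosen with this contrast in view, and the thalamic list with earlier results known. Their positions are thus a description only.

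Markers of cells not known for Slc17a6 expression were low in IP as well. Their counts stand beside 15.6% of all genes that fell and 9.6% that rose (19.2% and 15.9% in the blocked fit). The 14 oligodendrocyte genes all fell, at a median of -4.39 on the log2 scale, and summed to 193 to 341 CPM in IP and 4216 to 5952 CPM in Input. Of 12 astrocyte genes 11 fell and 0 rose, with a median of -4.35, and of 14 tested GABAergic genes 8 fell and 0 rose, with a median of -3.42 (12 fell in the blocked fit). The summed GABAergic genes stood at 12.1%, 15.0% and 15.1% of Input in pairs 1, 2 and 3, and the summed oligodendrocyte genes at 4.59%, 7.02% and 5.18%. Single genes had log2 fold changes of -1.62 (Slc1a2, of the astrocyte list), -2.95 (Gad2, of the GABAergic list) and -5.05 (Rgs5, of the mural list). Of the tested genes of microglia, endothelium and choroid plexus with ependyma, 10 of 11, 6 of 9 and 3 of 6 fell and 0 rose, with medians of -4.61, -4.53 and -2.81 (5 of 6 for the last in the blocked fit). Tac2 and Ano1 had a lower fitted log2 fold change than every one of the oligodendrocyte, astrocyte and mural genes tested. Gpr151 and Pou4f1 had a higher one than every gene of those 3 lists. Nwd2 and Syt15 lay above all 14 oligodendrocyte genes and above 10 of 12 astrocyte genes. The habenula genes were chosen with this contrast in view, so these ranks are a description only.

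Markers of other neighbouring regions were read too. In IP, Slc6a4 (the serotonin transporter of the raphe), Kiss1 (hypothalamus) and the pineal genes Aanat and Asmt had 0 reads. They were nearly absent from Input too, with 11, 2, 17 and 0 reads over its 3 libraries, so these zeros say little. Input held at most 5.604 CPM of all pineal and subcommissural genes together. Of those genes 2 were tested and 0 were called by edgeR (1 at an unadjusted p under 0.05, and 1 lower in the blocked fit). The hypothalamic genes summed to 9.41 to 17.98 CPM in IP and 10.6 to 39.8 CPM in Input, with 1 of 8 tested genes higher and 1 lower (3 lower in the blocked fit). Gal rose by 1.35 ± 0.42 (edgeR adjusted p = 0.0435) and Hdc fell by 4.84 ± 1.42 (edgeR adjusted p = 0.0369). Pmch and Hcrt had 331 and 240 reads over the IP libraries, beside 1358 and 864 over Input. The 5 serotonergic genes summed to 10.2 to 22.0 CPM in IP and 26.6 to 31.6 CPM in Input, mostly Slc18a2, with 1 of 3 tested genes lower. Over all genes tested, 15.6% were called lower and 9.6% higher (19.2% and 15.9% in the blocked fit). The part of these regions in the habenula gene levels was not tested.

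Levels of the 7 genes were set against each other per kb of exon. In Input the mean was highest for Tac2 at 17.8 ± 13.9 CPM per kb (SD, n = 3), then Gpr151 at 9.62 ± 10.2, Nwd2 at 7.46 ± 3.38, Htr5b at 4.27 ± 3.72, Pou4f1 at 2.76 ± 1.004, Syt15 at 1.71 ± 0.594 and Ano1 at 0.956 ± 0.328 CPM per kb. From Tac2 to Pou4f1, neighbours in this order differed by less than the larger of their SDs, so that their order is not resolved, whereas Pou4f1 against Syt15 and Syt15 against Ano1 differed by slightly more. The order also depended on the library. Input 1 gave it as listed, from 27.9 CPM per kb for Tac2 to 1.03 for Ano1, whereas in Input 3 Nwd2 led at 3.72 CPM per kb and Htr5b was last at 1.18. In IP, Gpr151 had the highest level at 3.96 ± 1.91 CPM per kb and Ano1 the lowest at 0.0239 ± 0.0138.

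The Input libraries differed from each other for most of the genes. Gpr151, Pou4f1, Tac2, Nwd2 and Htr5b were each highest in Input 1 and lowest in Input 3, an order that 24.7% of all genes tested had. Tac2 spanned 14.6 times from the lowest to the highest Input library, Gpr151 8.10 times and Htr5b 7.09 times. Among genes within 2-fold of the same Input mean, the median span was 1.55, 1.61 and 1.81 times, and 0.107%, 0.649% and 3.01% of them varied at least as much. Ano1 and Syt15 did not share the order. Both were lowest in Input 2, and their spans of 2.08 and 2.07 times were reached by 42.6% and 35.4% of genes of like level. Pou4f1, at 2.19 times, was also within the range of its peers (25.2%). The summed thalamic glutamatergic genes had the same order of Input libraries, at 10177, 6520 and 3691 CPM. The order was thus not found in habenula genes alone.

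**Figure D4:**
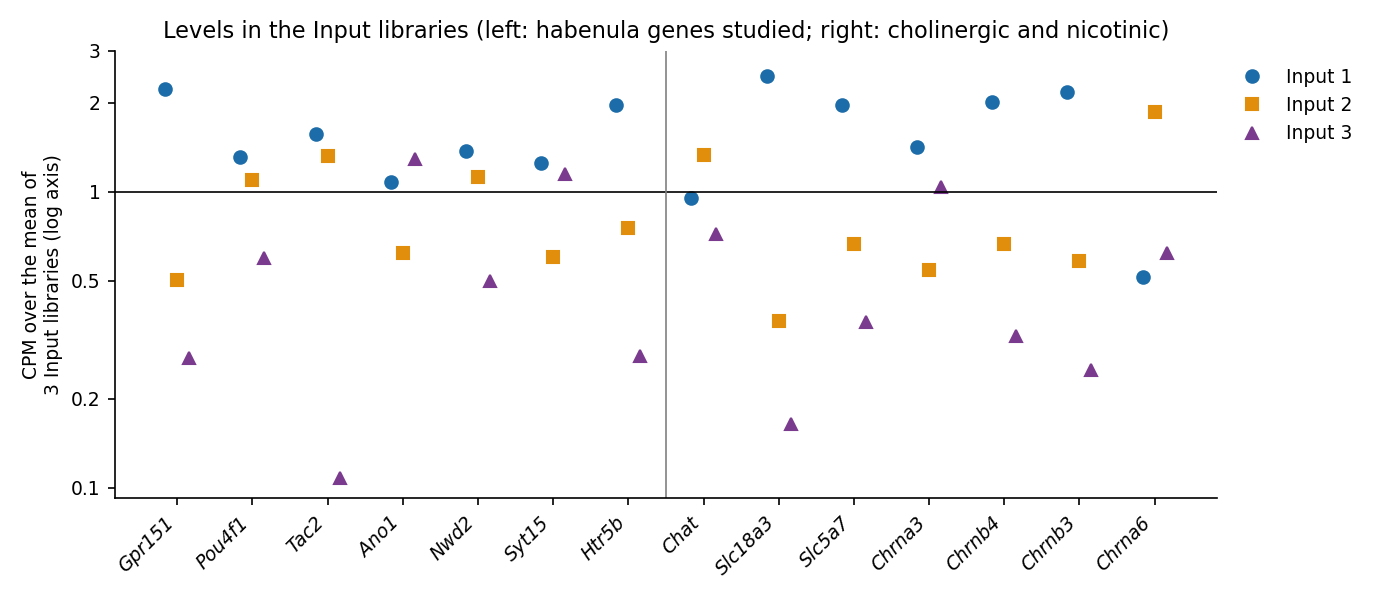
Level of the 7 habenula genes (left) and of 7 cholinergic and nicotinic genes of the medial habenula (right) in each Input library, divided by the mean of the 3 Input libraries, on a log axis. Input 1 lies above Input 3 for all but Ano1 and Chrna6, with Tac2 in Input 3 at 0.107 of its mean.

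Genes of the medial habenula's cholinergic apparatus were not among the chosen 7 and were tested in the fit across all genes. Of 7 tested, 5 fell in IP and 0 rose, where 15.6% and 9.6% of all genes did. Their median log2 fold change was -3.21, beside -0.04 over all genes. Chrnb4, a nicotinic receptor subunit typical of the medial habenula, had 44.3, 14.7 and 7.19 CPM in Input 1, 2 and 3 and 1.46, 1.504 and 1.36 CPM in IP. Its log2 fold change was -3.94 ± 0.64 (SE, edgeR adjusted p = 0.00399), and every IP library lay below every Input library. Chrna3, the subunit that pairs with it, fell by 2.14 ± 0.37 on the log2 scale (edgeR adjusted p = 0.00515). Slc5a7, the choline transporter, fell by 3.21 ± 0.69 (edgeR adjusted p = 0.0116), and Chat, which makes acetylcholine, by 3.21 ± 0.75 (edgeR adjusted p = 0.0156). Slc18a3, the vesicular acetylcholine transporter, did not pass, with -3.58 ± 1.28 (edgeR adjusted p = 0.0725). Its adjusted p was 0.00929 by DESeq2, 0.137 by limma-voom and 0.134 by edgeR with the replicate block. Chrna6 did not pass either, at 1.07 ± 1.002 (edgeR adjusted p = 0.477). Slc18a3 sits within the Chat locus, so reads of the 2 genes may not be fully separated. Of the 5 falls, that of Chat missed the threshold without IP 2 and without Input 2, with an adjusted p of up to 0.0641, and its value was -4.10 without IP 3. Without Input 1 the values were -2.92 for Chrnb4, -2.24 for Slc5a7 and -1.67 for Slc18a3. The fifth gene that fell was Chrnb3, named after its value was seen, at -3.82 ± 0.92 (edgeR adjusted p = 0.0174, and up to 0.0618 without IP 2, IP 3 or Input 1). It was -2.55 without Input 1, and limma-voom gave an adjusted p of 0.0551. The part of cholinergic neurons outside the habenula in the levels of these genes was not tested.

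The cholinergic genes shared the Input order of the chosen 7 in 4 of 7 cases. Input 1 exceeded Input 3 by 15.0 times for Slc18a3, 8.66 times for Chrnb3, 6.16 times for Chrnb4 and 5.45 times for Slc5a7. By their summed level, IP held 10.8%, 18.2% and 24.1% of Input in pairs 1, 2 and 3. The 7 chosen genes together held 13.6%, 15.2% and 42.9%, and 14.2%, 16.2% and 25.8% without Pou4f1. Each of these sums was lowest in pair 1, the pair whose Input had the highest level of each.

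Among 5 transcription factors of the habenula, 3 fell and 0 rose, where 15.6% and 9.6% of all genes did, with a median of -0.96. Isl1, a LIM homeodomain factor, fell by 2.81 ± 0.75 on the log2 scale (edgeR adjusted p = 0.0265), from 7.78, 10.1 and 6.24 CPM in Input to 0.243, 0.771 and 2.41 CPM in IP. Its highest IP value was in IP 3, as for Pou4f1, and without IP 3 its log2 fold change was -3.97. Nr4a2, an orphan nuclear receptor gene, fell by 1.62 ± 0.31 (edgeR adjusted p = 0.00743), and Etv1 by 0.96 ± 0.25 (edgeR adjusted p = 0.0228). The fall of Etv1 passed only without Input 3 among the fits that leave out a library (adjusted p up to 0.0725), and that of Isl1 missed without IP 2 and without Input 2 (up to 0.0894). Lmo3 had -0.96 ± 0.81 (edgeR adjusted p = 0.427), which became -2.78 (adjusted p = 0.0100) without IP 3 and -1.61 (adjusted p = 0.00567) with the replicate block. Nhlh2 had 0.66 ± 0.37 (edgeR adjusted p = 0.234).

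Of 8 other medial habenula genes 2 fell and 0 rose, with a median of -0.22, where 15.6% of all genes fell. Kcng4, a potassium channel subunit, fell by 3.21 ± 0.60 (edgeR adjusted p = 0.00656), and Il18, a cytokine gene expressed by medial habenula neurons, by 1.92 ± 0.41 (edgeR adjusted p = 0.0107). Without Input 1 the value of Kcng4 was -2.61. Spon1 and Adcyap1 did not pass, with log2 fold changes of -0.15 ± 0.45 and 0.35 ± 0.36. Tac1, which encodes substance P and marks the dorsal medial habenula, had 12.3, 8.94 and 28.3 CPM in Input and 3.39, 4.25 and 41.8 CPM in IP. Its fitted value was -0.00 ± 0.89 (edgeR adjusted p = 0.999), and -2.11 (adjusted p = 0.0395) without IP 3, so it shared the high IP 3 value of Pou4f1.

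Of 8 lateral habenula genes 1 rose, 0 fell and 7 did not pass, with a median of 0.38, where 9.6% of all genes rose. Their summed level in IP was 176%, 197% and 175% of Input in pairs 1, 2 and 3. Without Gap43, which makes up most of the sum in IP, it was 139%, 127% and 117%. Gap43, a growth cone protein gene that many glutamatergic neurons express, rose by 1.09 ± 0.28 (edgeR adjusted p = 0.0238), from 285, 515 and 455 CPM in Input to 621, 1140 and 913 CPM in IP. Without IP 2 or IP 3 it did not pass (adjusted p of 0.0911 and 0.0651). Pcdh10 had 0.29 ± 0.37 (edgeR adjusted p = 0.610). Htr2c, a serotonin receptor gene, had 0.92 ± 0.34 (edgeR adjusted p = 0.0785) and passed with the replicate block at 0.91 (adjusted p = 0.00259), as Chrm3 did at 1.15 (adjusted p = 0.0197). Vav2, Htr4 and Cartpt, named after their values were seen, had -2.20 ± 0.73, -1.998 ± 1.34 and -1.07 ± 0.81 (edgeR adjusted p = 0.0564, 0.311 and 0.372). Vav2 passed by DESeq2 (adjusted p = 0.00958), but not by limma-voom (0.0698) or by edgeR with the replicate block (0.0746). Whether this list differs from the chosen 7 was not tested. These genes are also expressed by neurons of the thalamus proper, and the part of those neurons in their levels was not tested.

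Over the 4 lists together, 10 of 28 tested genes fell (35.7%, where 15.6% of all genes were called lower) and 1 rose (3.57%, where 9.6% were called higher). With the replicate block the counts were 11 and 3, beside 19.2% and 15.9% of all genes. Leaving out a single library gave from 6 (without IP 2) to 12 (without Input 3) genes lower. It was 6 without pair 1 and 15 without pair 3. Without pair 2 the count was 2, and 651 genes were lower over the whole table in place of 2566. No gene of the lists rose without IP 2, IP 3, pair 2 or pair 3, and 3 rose without Input 1. The 4 lists were put together from textbook knowledge with earlier results of these data known. The part of cells outside the habenula in the levels of their genes was not tested.

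**Figure D5:**
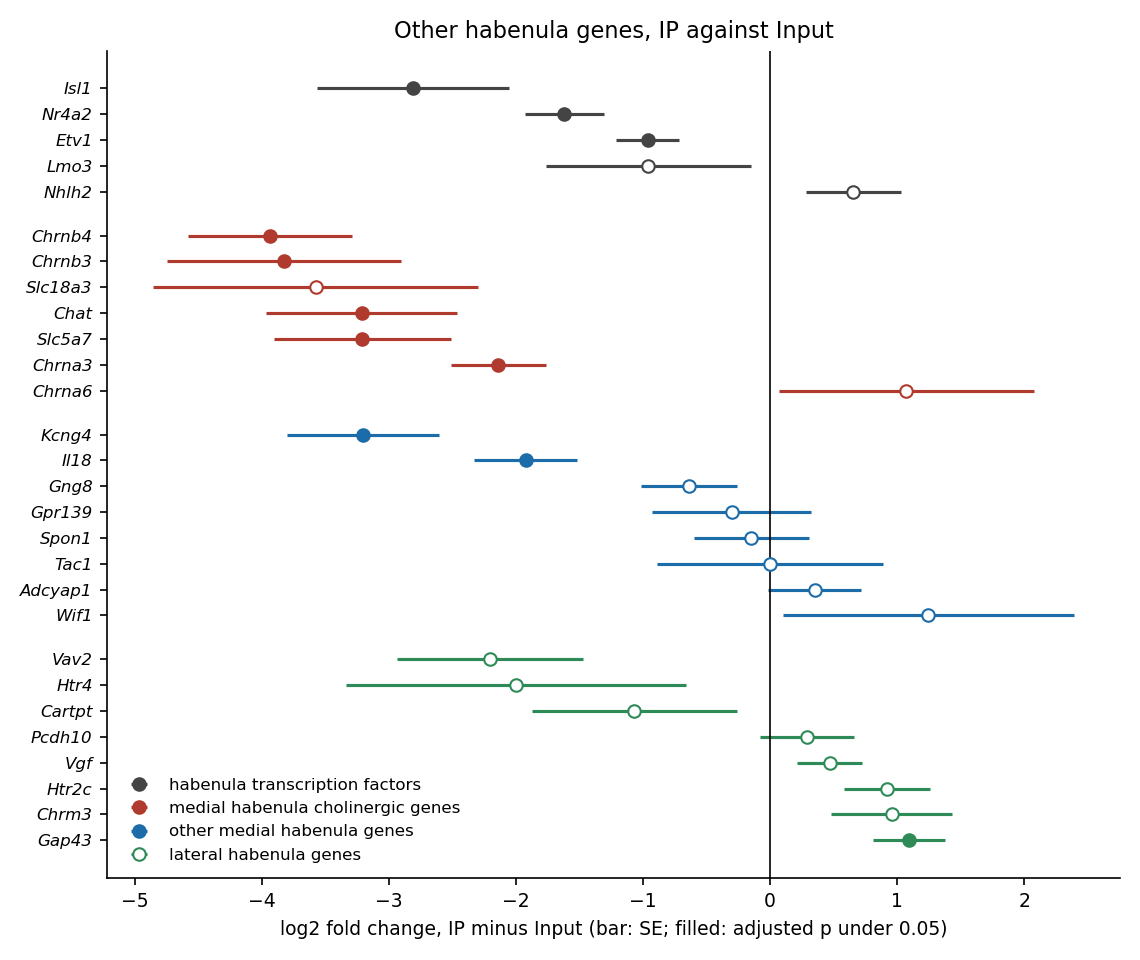
Fitted log2 fold change of IP minus Input with its SE for 28 habenula genes outside the chosen 7, by list, where filled symbols have an edgeR adjusted p under 0.05. The called cholinergic genes lie between -3.94 and -2.14, and Gap43 is the only called gene above 0.

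Tac2, Ano1 and Syt15 belong to gene families whose other members were read in the same fit. Beside Tac2, 4 tachykinin and receptor genes were tested, and 0 were called by edgeR, with and without the replicate block, or by DESeq2 (0 at an unadjusted p under 0.05). Tacr3, the receptor of neurokinin B, had 0.41 ± 0.64, and Tacr1, the substance P receptor, had -0.82 ± 0.42 (edgeR adjusted p = 0.683 and 0.183). Beside Ano1, 8 anoctamins were tested, of which 2 fell and 0 rose, where 15.6% and 9.6% of all genes did, with a median of -0.48. The 2 were Ano4 at -1.22 ± 0.38 (edgeR adjusted p = 0.0465) and Ano6, a phospholipid scramblase gene, at -1.08 ± 0.33 (edgeR adjusted p = 0.0419), and each passed in 2 of 6 fits that leave out a library. Ano3 had -2.06 ± 0.71 (edgeR adjusted p = 0.0650, or 0.000113 once blocked by replicate), and Ano5 had 0.07 ± 0.27. No other tested anoctamin had a lower value than Ano1, but Ano1 was chosen with this contrast in view, so its rank is a description only.

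Beside Syt15, 14 synaptotagmins were tested, of which 3 rose and 2 fell, where 9.6% and 15.6% of all genes did, with a median of 0.45. In the blocked fit 7 rose and 2 fell, at 15.9% and 19.2% of all genes. None of the 14 had a lower value than Syt15, but Syt15 was chosen with this contrast in view, so its rank is a description only. Syt5, a calcium sensor gene, rose by 1.64 ± 0.24 (edgeR adjusted p = 0.00265), Syt17 by 1.66 ± 0.36 (edgeR adjusted p = 0.0122) and Syt16 by 0.76 ± 0.20 (edgeR adjusted p = 0.0247), the last passing in 2 of 6 fits without a library. Syt1, the main calcium sensor of fast transmitter release, had 0.19 ± 0.44 and Syt7 0.23 ± 0.23, and neither passed (edgeR adjusted p = 0.795 and 0.509). The 2 genes that fell, named after their values were seen, were Syt2 at -1.95 and Syt6 at -2.34 (edgeR adjusted p = 0.0399 and 0.0420). Each passed in 2 of 6 fits without a library, and Syt6 was at -3.83 without IP 3.

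The profile of each chosen gene over the 6 libraries was compared with those of 12855 named genes averaging 1 CPM or more, by the root-mean-square difference of centred log2 CPM. Nwd2 was nearest to Spata1 (0.15), Adamts4 (0.16) and Dab2 (0.26), and the first 2 of these distances were the smallest found. Syt15 was nearest to Gstm1 (0.21), Elovl2 (0.26) and Klk6 (0.27), and Ano1 to Galnt4 (0.24), Cpt1a (0.32) and Cfap70 (0.32). For Gpr151 the nearest were Colec12 (0.38), Wls (0.40) and Ppp1r3a (0.44), and for Htr5b they were Rhbdd1 (0.43), Creb3l2 (0.43) and Plcg2 (0.45). Pou4f1 was nearest to Acrbp (0.39), Crnde (0.41) and Irx1 (0.48), which shared its low values in IP 1 and IP 2 and its high value in IP 3. Irx1, a homeobox gene, had 0.324, 0.0752 and 5.26 CPM in IP 1, 2 and 3. Tac2 had no close neighbour, since even Olfml1 (0.70), Cspg4 (0.80) and Lyz2 (0.82) were farther from it than any gene named here was from the other chosen genes. These distances rest on 6 libraries in same-numbered pairs, and no chosen gene was among the nearest 3 of another. Cspg4 was also on the mural list. Which cells the neighbours come from was not tested, so the profiles do not place a chosen gene in habenula neurons.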

How the data were processed

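RNA was measured by TRAP sequencing in 6 thalamus libraries (3 IP, 3 Input). The authors deposited 1 table of raw read counts per library, with a row for each gene. Alignment to mm10 used STAR 2.0.0e, and HTSeq did the counting, per the submitters' processing notes. Nothing used here states the annotation, the strand setting or the library kit, and the labels give ribosome-bound RNA for Input too. Summary rows were left out of library sizes and tests. Records without a feature were 7.65 to 7.85% in IP and 14.0 to 17.7% in Input, beside 1.53 to 1.92% and 7.37 to 13.2% ambiguous, and 38.5 to 45.0% and 23.6 to 27.2% aligned at more than 1 place.

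The main test was the quasi-likelihood F-test of edgeR 4.0.16 in R 4.3.3, with group as the sole term, after the filterByExpr filter and TMM scaling. It was two-sided, and p-values were adjusted by Benjamini-Hochberg over all genes tested, at a threshold of 0.05. Alternatives were RLE and library total scaling, no filter, at least 5 CPM in 3 libraries, DESeq2 1.42.0, limma-voom 3.58.1, the replicate block, and leaving out each library or pair. Sums without Pou4f1 or Gap43 were added after seeing the data. Same-numbered libraries deviated together from their group means (correlations across genes 0.271, 0.113 and 0.141, all over 0.1), so the numbers in the titles were taken to pair them. Sequencing lanes 3, 8 and 4 held pairs 1, 2 and 3, so the ratio within a pair is also the value within a lane. No 2 libraries agreed within sampling noise.

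The members and all gene lists were chosen with earlier results of these data known. Named genes were the 7 members, up to 4 called genes by smallest p and up to 2 most abundant uncalled genes of each habenula and family list, the 3 nearest profiles per member, and the most abundant Input gene of the cell type lists. Some genes that this rule names are not reported here. Profiles were log2 CPM with a prior count of 2. Gene positions and exon lengths came from GENCODE M21 and promoter windows from RefSeq, with Python 3.11.15.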

Additional observations from a re-analysis of the deposited data

How the results depend on the processing

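Over the alternative fits, 106 of 109 values of the 7 habenula genes kept their direction and stayed within the spread between replicates. That spread was the SD of the gene's own 3 pair ratios, so a gene with discordant pairs could shift far and still be counted. Pou4f1, whose pairs disagreed most, was counted so although it ran from -4.11 without pair 3 to -0.50 without pair 1. Gpr151 lay between -1.72 (without Input 3) and 0.085 (without Input 1, a reversal) and moved to -0.34 without pair 1, and Htr5b moved to -0.68 without Input 1. With the filter of 5 CPM in 3 libraries, Tac2, Ano1 and Htr5b had no value. With the replicate block, which uses the pairing, 2624 genes were higher in place of 1583, and 11 other habenula genes were lower and 3 higher in place of 10 and 1. Apart from calls given in the text it changed no other call of a named habenula gene. Other habenula genes higher numbered 2 with no filter and 2 by DESeq2. Leaving out a library or a pair gave 83 to 1640 genes higher, 651 to 2598 lower, and 2 to 15 other habenula genes lower and 0 to 3 higher. The counts of 83, 651 and 2 came without pair 2. The cause was not tested. Without IP 2, 731 genes were higher, 1634 lower and 6 other habenula genes lower, and without pair 1 the last count was also 6. Counting error limits Ano1 and Tac2 in IP, at 4 to 12 and 12 to 53 reads.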
